A study of Mus musculus with 71 samples.

Results

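Gene expression in the striatum, which receives most of the input to the basal ganglia, was measured in wild-type mice of 1 line, Ki2, before birth and in adulthood. The comparison held 17 of the 71 arrays of the series: 5 of Foxp2wt/wt females aged 95 days, and 12 of Foxp2wt/wt embryos at E16.5, which are 5 females and 7 males. They were chosen by genotype, line and age in the sample titles and not by any measured value. All 17 animals came from crosses of Foxp2wt/hum parents, whose humanised allele (hum) carries the human-type substitutions of the transcription factor gene Foxp2, and each animal had inherited only wild-type alleles. The labels trace line Ki2 to a C57BL/6 embryonic stem cell clone, which they name differently in different fields, and the other Foxp2 alleles of the series are not part of these 17 animals. Foxp2hum/hum animals of the same line, ages and array runs (6 adults and 13 embryos) served as separate arrays for the same contrast, and 12 wild-type juveniles of lines Ki and Ko, at 15, 18 and 21 days, gave levels between the stages.

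Embryonic and adult striata were dissected whole and include the pallidum, the output nucleus next to it, per the labels' protocols. As background, at this embryonic stage striatal neurons are still being born in the ganglionic eminences and are migrating and growing axons. Synapse formation, the maturation of dopamine and glutamate signalling and the wrapping of axons in myelin follow largely after birth. A change between these stages in whole tissue can therefore reflect both which cells are present and how much RNA each of them makes, and fewer cells of a type and less RNA per cell cannot be told apart here.

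The deposited table names 15768 genes by Ensembl identifiers, and the gene table used here (assembly GRCm38.p6) matched 0 of them to a symbol. Genes are therefore given by identifier without a name or role, at most 2 that rose and 2 that fell in a comparison, and the tissue label could not be checked against striatal markers. No sequence is shown for the same reason. Of the 30 gene lists drawn up for cell types and pathways, 0 could be matched, so none was counted.

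Stage cannot be separated from array run in these animals. Run 4 (5 arrays, litters 15, 19 and 21) and run 5 (7 arrays, litters 16, 17 and 18) held the embryos, and run 6 held the adults, from litters 13, 20, 24 and 25. The labels call a run a microarray batch. Because the 2 embryonic runs are of the same stage and genotype, the difference between them, the run gap, shows how far 2 sets of such arrays can stand apart. The runs also come from different litters, so run and litter cannot be told apart in that gap, and the labels mention a second batch of embryos without tying it to a run. The median log2 value of an array ran from 6.83 to 6.95. Precision depends on how many arrays there are and on how far they spread. The median 95% confidence interval was ± 0.27 for the stage change and ± 0.24 for the run gap. Both rest on a spread for each gene that is pooled over adults and embryos.

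The arrays of each embryonic run were close to one another, and the adults were more spread. Correlations across the 9461 genes tested ran from 0.989 to 0.992 between arrays of run 4, from 0.980 to 0.992 within run 5 and from 0.909 to 0.978 among the adults. Between the embryonic runs they ran from 0.935 to 0.954, above the lowest value among adults. Adults correlated with run 4 at 0.636 to 0.711 and with run 5 at 0.688 to 0.740, so every pair of arrays of different stages was less alike than every pair of embryonic arrays from different runs. These values are descriptions over genes, which are not independent.

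The first principal component held 75.1% of the variance and separated the stages: the adults scored from 69.9 to 79.9, run 5 embryos from -30.3 to -26.9 and run 4 embryos from -40.1 to -35.8. The second held 11.9% and separated the embryonic runs, with run 5 from 17.2 to 23.5, run 4 from -27.8 to -24.5 and the adults between them, from -10.9 to 6.17. The third, with 4.86%, spread the adults from -24.8 to 33.2 while all embryos lay between -2.22 and 2.11.

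**Figure D1:**
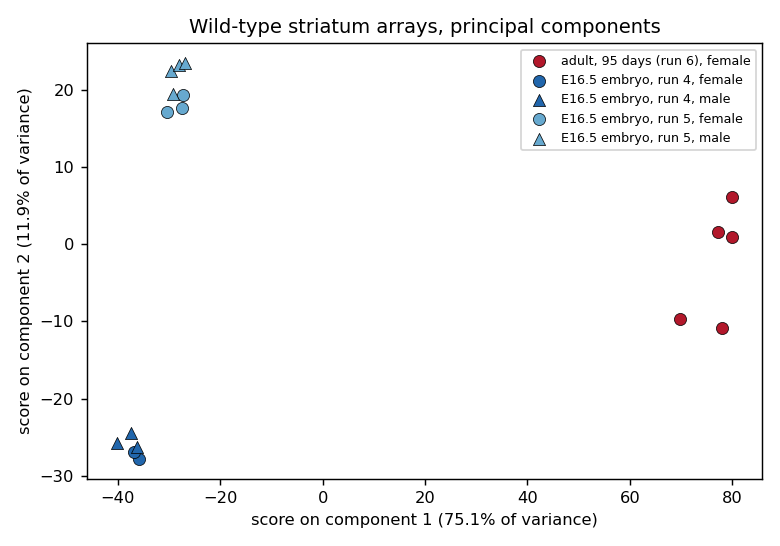
Scores of the 17 wild-type arrays on the first 2 principal components of log2 values of 9461 genes. Each point is 1 array, coloured by stage and run and shaped by sex; the horizontal axis parts adults (at least 69.9) from embryos (at most -26.9) and the vertical axis parts run 4 from run 5.

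Adults and embryos were compared in 1 model with adults, run 4 embryos and run 5 embryos as separate groups and sex as a covariate, taking adult minus the mean of the 2 embryonic runs. By limma with Benjamini-Hochberg adjustment at 0.05, 6781 of 9461 genes (71.7%) differed: 3194 (33.8%) were higher in adults and 3587 (37.9%) were lower. The median change over all genes tested was -0.06 on the log2 scale, and the median size was 0.57. Rises were larger than falls at the far end, among the genes that the filter kept. That filter used the mean over all 71 arrays, most of them postnatal. It therefore keeps a gene high only after birth more readily than one high only in embryos. How far this sets the balance of rises and falls, here and in later counts, was not tested. More than 2-fold changes were called in 1404 rising and 1211 falling genes, more than 8-fold in 178 and 54, and more than 32-fold in 29 and 1.

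The same model called 4490 of 9461 genes (47.5%) between run 5 and run 4, with 2885 (30.5%) higher and 1605 (17%) lower in run 5. The split depended on the scaling, since quantile normalization of the arrays gave 4300 calls of which 2141 were higher and 2159 lower in run 5. Its sizes were much smaller than those of the stage change. The median size was 0.28 and the 99th percentile 1.505, against 0.57 and 3.86 for stage. More than 2-fold run differences were called in 474 genes, more than 4-fold in 22 and more than 8-fold in 2, against 2615, 730 and 232 genes for stage. The stage change passed the 99th percentile of the run gap in 1311 called genes, 820 rising and 491 falling.

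**Figure D2:**
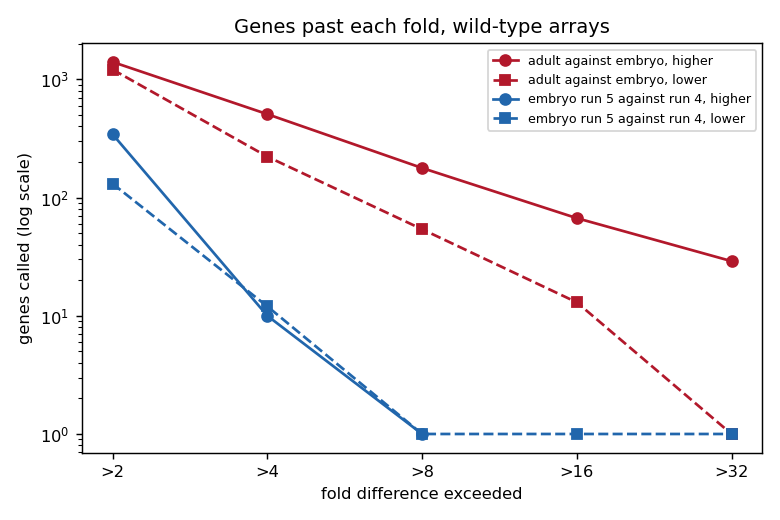
Number of genes called (adjusted p under 0.05) whose difference exceeds 2-, 4-, 8-, 16- and 32-fold, on a log axis, for adult against embryo and for embryo run 5 against run 4; a point at 0 is left out. Past 4-fold the stage comparison has 508 higher and 222 lower genes and the run comparison 10 and 12.

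Some of the stage changes called were smaller than the difference between the embryonic runs. Stage and run stay confounded for changes of any size. For 882 of the 6781 genes called (13.0%), the stage change was smaller than the same gene's run gap. Tested against each embryonic run on its own, 6723 genes (71.1%) differed between adults and run 4 and 6580 (69.5%) between adults and run 5. Both tests share the adult arrays. They called 5297 genes in the same direction, 141 in opposite directions, and 2427 against 1 run but not the other.

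Genes were counted as beyond the run gap when adults differed from both runs in the same direction, when the smaller of these 2 changes was at least 1 on the log2 scale (2-fold), and when it was at least 3 times the gene's own run gap. That left 1481 genes, 837 higher in adults (8.85% of those tested) and 644 lower (6.81%). The genes were picked on these values, so their sizes are a description. Of 2024 genes that met the first 2 conditions, 543 failed the third. The member nearest the limit had a ratio of 3.01 and the nearest gene outside it 2.99.

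The median rise was 1.91 on the log2 scale with a median run gap of 0.20, and the median fall was 1.51 in size with a median run gap of 0.18. Among rising genes 390 exceeded 4-fold, 156 exceeded 8-fold and 62 exceeded 16-fold. Among falling genes these counts were 158, 48 and 11. For 408 rising and 300 falling genes the stage change, adult minus the mean of the 2 runs, was at least 10 times the run gap.

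Array by array, all 5 adults lay above all 12 embryos for 1872 genes and below them for 2038, together 41.3% of the genes tested. The run arrays also did not overlap for 42.3% of genes, so separation alone says little here. More than 1 log2 unit lay empty between adults and embryos for 869 of all genes tested (9.19%) and between the runs for 108 (1.14%), in groups of different sizes. The lowest adult stood more than 1 above the highest embryo for 463 of the 837 rising genes, and the highest adult more than 1 below the lowest embryo for 253 of the 644 falling genes, which is largely built in, since these genes were picked for changes of at least 1. In 42 of the 1481 genes adult and embryonic arrays overlapped.

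**Figure D3:**
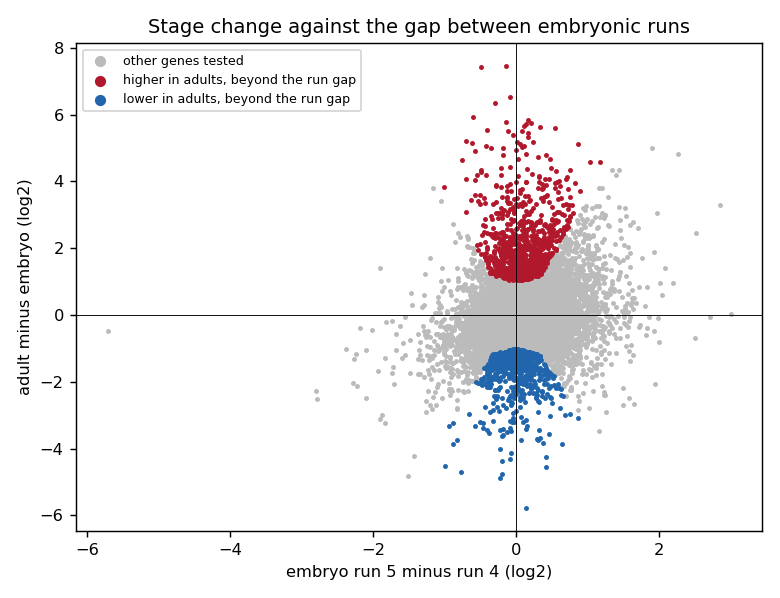
Each point is 1 of 9461 genes, placed by its difference between embryonic runs (horizontal, run 5 minus run 4, log2) and its stage change (vertical, adult minus embryo, log2). The 837 rising (red) and 644 falling (blue) genes beyond the run gap sit near the vertical axis, and grey genes to the far left and right are those with large run differences.

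ENSMUSG00000046480_at had the largest fitted rise. Its run 4 embryos were at 5.57, 5.29, 4.69, 5.16 and 5.61 and its run 5 embryos ran from 4.68 over a median of 5.17 to 5.45, while the adults were at 13.11, 12.52, 12.22, 12.74 and 12.87. Embryos of both runs were low and overlapped each other, and 6.61 log2 units lay empty between the highest embryo and the lowest adult. The change was 7.47 (95% confidence interval from 7.07 to 7.87; limma, adjusted p = 4.14e-16), against a run gap of -0.15 (adjusted p = 0.526). Its embryonic values lie below every array's median, and whether they stand above background is not given, so the size of the rise holds only on the scale of the deposited values. Juveniles were already at the adult level, with means of 12.67 ± 0.21 at 15 days, 12.91 ± 0.17 at 18 days and 13.01 ± 0.05 at 21 days (SD, n = 4 each).

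ENSMUSG00000041607_at followed closely and was the steadiest of the named genes among adults. Run 4 embryos were at 6.41, 6.43, 6.46, 6.35 and 6.46, run 5 embryos ran from 5.68 over 5.97 to 6.09, and adults were at 13.73, 13.56, 13.54, 13.54 and 13.60. The change was 7.43 (interval from 7.25 to 7.61; limma, adjusted p = 2.58e-21), and its embryonic values too lie below the array medians. All run 5 embryos lay below all run 4 embryos, a run gap of -0.49 that passed the test (adjusted p = 6.01e-05). The stage change against the nearer run was 14.6 times that gap. Juvenile levels were 13.65 ± 0.16, 13.78 ± 0.10 and 13.76 ± 0.04 at 15, 18 and 21 days (SD, n = 4 each), so the gene stood near its adult level by day 15.

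ENSMUSG00000024501_at fell most. Run 4 embryos were at 12.76, 12.73, 12.81, 12.84 and 12.63 and run 5 embryos ran from 12.65 over 12.88 to 13.05, while the adults were at 7.63, 7.26, 7.11, 6.60 and 6.58. Embryos were uniformly high and adults low, with 5.00 log2 units empty between them. The adults at 6.60 and 6.58 lie below every array's median, and whether they stand above background is not given. The gene fell by 5.79 (interval from -6.12 to -5.47; limma, adjusted p = 7.06e-16), against a run gap of 0.13 (adjusted p = 0.483). Its juvenile levels lay between the stages, at 8.83 ± 0.36 on day 15, 8.21 ± 0.29 on day 18 and 7.80 ± 0.17 on day 21 (SD, n = 4 each). In this gene the level was lower at each later age measured.

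ENSMUSG00000047139_at was the second largest fall. Run 4 embryos were at 12.54, 12.95, 12.89, 12.76 and 12.84 and run 5 embryos ran from 12.37 over 12.51 to 13.00, and adults were at 6.91, 8.21, 7.78, 8.34 and 8.18. It fell by 4.88 (interval from -5.31 to -4.46; limma, adjusted p = 1.73e-13), with a run gap of -0.22 (adjusted p = 0.344). The adult of litter 13 was the lowest, and all 5 adults lay far below every embryo. Juvenile means of 7.88 ± 0.40, 7.37 ± 0.49 and 7.01 ± 0.56 at 15, 18 and 21 days (SD, n = 4 each) reached below the adult mean of 7.88 ± 0.58 (SD, n = 5).

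**Figure D4:**
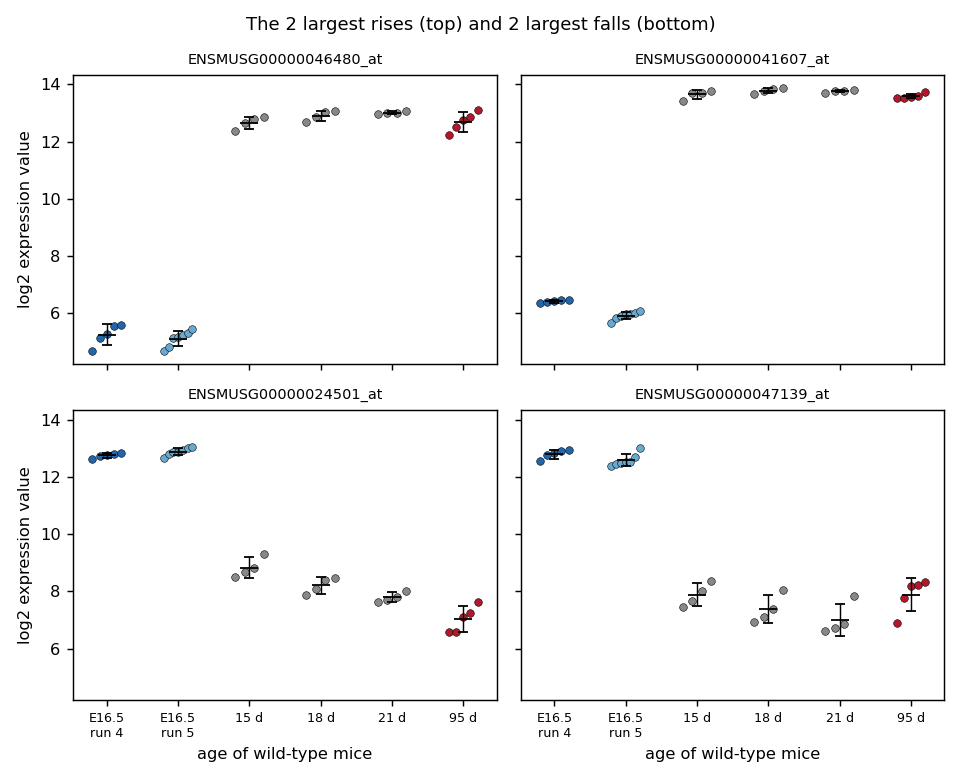
Log2 expression values of the 2 largest rises (ENSMUSG00000046480_at, ENSMUSG00000041607_at) and the 2 largest falls (ENSMUSG00000024501_at, ENSMUSG00000047139_at) in wild-type mice. Points are arrays and bars the mean ± SD; embryos of both runs sit together far from the adults at 95 days, and juveniles (grey, other lines and runs) sit on the adult side.

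The genes that run set apart most show what the run gap can look like. ENSMUSG00000038872_at was at 6.96, 6.33, 6.60, 6.26 and 6.56 in run 4 and from 9.40 over 9.55 to 9.68 in run 5, a difference of 3.01 (SE 0.30; limma, adjusted p = 4.42e-07). Adults spread from 6.80 to 9.26, across the space between the runs, and the stage change of 0.02 did not pass (adjusted p = 0.953). A comparison with run 4 alone would have shown a rise of 1.53 and one with run 5 alone a value of -1.48.

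ENSMUSG00000039629_at, the other of the 2 largest differences upward, was at 4.62, 5.26, 4.81, 4.54 and 5.63 in run 4 and from 6.89 over 7.91 to 8.60 in run 5. That is a difference of 2.85 (SE 0.24; limma, adjusted p = 6.92e-08). Its adults, at 9.36, 9.93, 9.37, 9.75 and 9.63, lay above both runs, and its stage change was 3.28 (SE 0.26; limma, adjusted p = 2.05e-09). It is a gene that differed with stage and was not counted as beyond the run gap, since the rise was 4.71 against run 4 and 1.86 against run 5. Its run 4 values lie below every array's median, and whether they stand above background is not given. The run gap and the rise against run 4 thus hold only on the scale of the deposited values.

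ENSMUSG00000027184_at was lower in run 5, and its stage change passed the test but was smaller in size than its run gap. Run 4 embryos were at 11.51, 11.46, 11.65, 11.24 and 11.52 and run 5 embryos ran from 8.07 over 8.58 to 9.17, a difference of -2.81 (SE 0.30; limma, adjusted p = 7.39e-07). Adults were at 7.29, 7.23, 7.28, 9.35 and 8.61, and both adults of litter 25 stood within the run 5 range or just above it. Its stage change was -2.28 (SE 0.32; limma, adjusted p = 4.10e-06), with -3.69 against run 4 and -0.88 against run 5.

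ENSMUSG00000061808_at had the largest run gap of all genes tested, at -5.72 (SE 0.88; limma, adjusted p = 4.28e-05). Run 4 embryos were at 13.81, 13.69, 10.53, 13.68 and 13.75 and run 5 embryos ran from 6.25 over 6.897 to 9.15. The adults, at 7.02, 8.88, 10.62, 14.08 and 9.46, covered almost the whole range of the embryos. The stage change of -0.49 had a 95% interval from -2.50 to 1.52. Single arrays thus differed by several log2 units within run 4 and among adults.

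**Figure D5:**
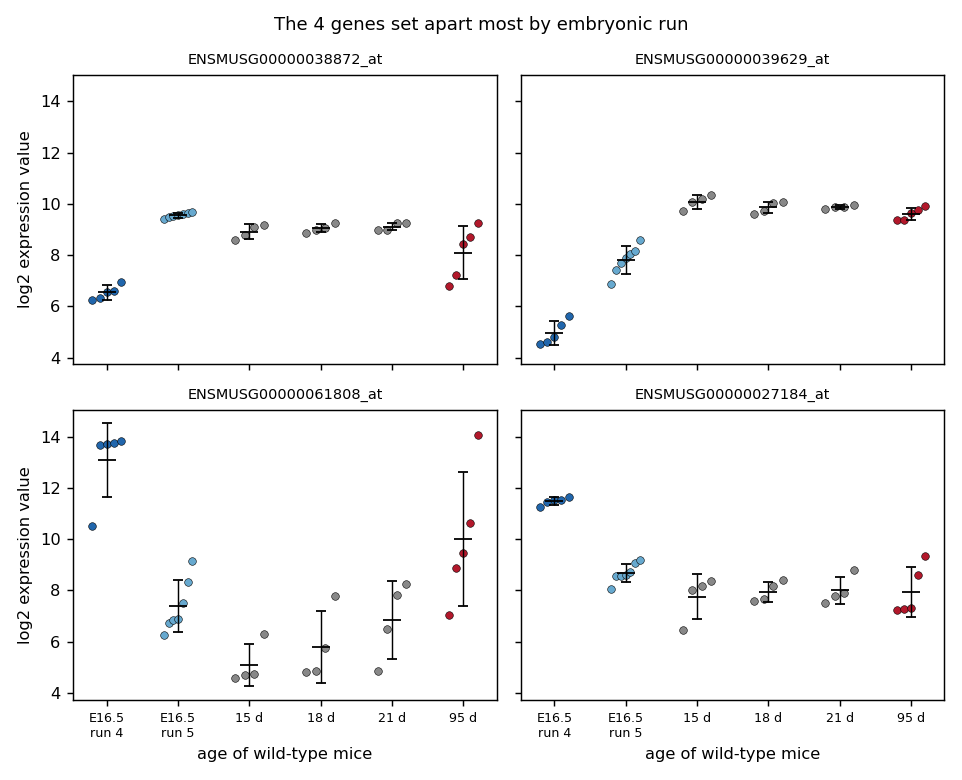
Log2 expression values of the 4 genes with the largest differences between embryonic runs (2 higher in run 5 on top, 2 lower below), in wild-type mice by age; points are arrays and bars the mean ± SD. Run 4 and run 5 embryos do not overlap in any of the 4 genes, and the adults of ENSMUSG00000061808_at run from 7.02 to 14.08.

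Adult arrays varied more than embryonic ones. The median SD over genes was 0.29 among the 5 adults and 0.13 among embryos within a run, and 8279 of 9461 genes (87.5%) had the larger SD in adults. The fit pools the spread of adults and embryos for each gene, so its intervals and p-values do not carry this difference. For such genes the stage intervals can be too narrow and the run gap intervals too wide. The 11 adults of both genotypes stood in 2 sets on their own first principal component (49.3% of their variance), with 2 wild-type arrays in the smaller and 3 in the larger set. The sets were split by the sign of that component, taken from these same values, so differences between them are partly built in. Among the 1481 genes beyond the run gap the means of the 2 wild-type sets differed by a median of 0.34, and by more than 1 in 114 genes. Over all 9461 genes these values were 0.28 and 430 genes. In 168 of the 1481 the sets differed by more than 50% of the stage change. Both sets lay on the same side of the embryonic mean for 1480, which the choice of the genes largely fixes. With adults of the smaller set alone 1510 genes were beyond the run gap, and with those of the larger set alone 1637.

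The humanised arrays gave the same contrast in other animals. They share the 3 runs with the wild-type arrays, so a difference between runs would appear in both, and 6 litters gave animals of both genotypes. By limma 6850 of 9461 genes (72.4%) differed between Foxp2hum/hum adults and embryos, 3122 (33%) higher and 3728 (39.4%) lower. All 837 wild-type risers beyond the run gap had a positive change and 836 were called as rising. All 644 fallers had a negative change and 643 were called as falling. Of the whole 9461 genes, 91.7% had stage changes of 1 sign in both genotypes. The genes called between the wild-type runs also kept their sign in 97.7%, against 85.0% of all genes tested, so a run difference recurs in these arrays too. The median rise was 1.79 in humanised against 1.91 in wild-type arrays and the median fall -1.43 against -1.51, sizes that favour the arrays on which the genes were picked.

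The humanised arrays put 792 rising and 684 falling genes beyond their own run gap. The lists shared 653 rising genes, 78.0% of the wild-type and 82.4% of the humanised list. They shared 513 falling genes, 79.7% and 75% of each. No gene was beyond the run gap in opposite directions. Across all genes tested the stage changes of the 2 genotypes correlated with r = 0.98, and their run gaps with r = 0.89. Both are descriptions over genes measured in the same runs.

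The 4 named genes moved alike in the humanised arrays. ENSMUSG00000046480_at rose by 7.60 and ENSMUSG00000041607_at by 7.72, while ENSMUSG00000024501_at changed by -6.03 and ENSMUSG00000047139_at by -4.62. The run gap passed the test again for 3 of its 4 named genes. It was 2.86 for ENSMUSG00000038872_at, 2.43 for ENSMUSG00000039629_at and -2.34 for ENSMUSG00000027184_at (limma, adjusted p = 2.10e-05, 1.33e-05 and 0.000184). For ENSMUSG00000061808_at, humanised run 5 embryos ran from 6.89 to 13.96 with a median of 13.57. Its humanised run gap of -2.30 (SE 1.70) did not pass (limma, adjusted p = 0.360). Tested directly, the run gap differed between genotypes in 0 of 9461 genes (limma, smallest adjusted p = 0.9998). A difference between genotypes in this gene is therefore not established.

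Whether the stage change differs between genotypes was tested directly over all 36 arrays. The limma count was 0 of 9461, with an adjusted p of 0.152 for the leading gene, and 1022 reached 0.05 before adjustment. The median 95% interval of this difference was ± 0.30. With array weights, which give less weight to arrays that deviate, 1842 genes passed.

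Levels in wild-type juveniles were set beside the 2 stages for the 1481 genes beyond the run gap, with no test. Juveniles were of lines Ki and Ko, were run on runs 1 to 3, and their striata were punched from slices and labelled from less RNA. Their columns carry fewer decimals than those of embryos and adults and may have been computed separately, and an offset between the sets of columns was not tested. Over all genes tested the median juvenile level differed from the adult by 0.01 and from the embryonic by -0.05.

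By 15 days the median rising gene stood at 86.8% of the way from its embryonic to its adult level, and the median falling gene at 93.3%. At 18 days these shares were 91.1% and 95.6%, and at 21 days 91.8% and 98.7%. At least 80% of the way had been covered at 15 days by 495 of 837 rising and 457 of 644 falling genes. Less than 50% had been covered by 111 rising genes and 48 falling genes at 15 days, and by 60 and 27 at 21 days. A larger share had been covered at 21 than at 15 days in 582 rising and 444 falling genes.

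Many genes went past the adult level. Over all juveniles, the upper quartile of the share covered was 107.8% for rising and 109.5% for falling genes. The juvenile mean was at more than 150% of the way in 22 rising and 17 falling genes. In 2 rising and 1 falling gene it lay on the far side of the embryonic level. The medians hardly depended on the line, at 90.7% in line Ki and 90.3% in line Ko for rising genes and 94.1% and 96.4% for falling genes (n = 6 arrays each). Most of the 1481 genes thus had juvenile levels nearer the adult than the embryonic ones. These genes were picked on adult and embryonic values, and the shares are given for them only. Juveniles differ from both stages in run, line, dissection and labelling, and what brings their levels near the adult ones was not tested.

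Sex enters the comparison because all adults were female. Among the wild-type embryos 1 gene of 9461 (0.0106%) passed between males and females, ENSMUSG00000072485_at, which was lower in males by 5.72 on the log2 scale (limma, adjusted p = 2.73e-13) and at 9.07 to 10.29 in the 5 adults. Before adjustment 182 genes reached 0.05. Every array lay on the side of its labelled sex, with the male embryos from 4.32 to 5.10 and the female embryos from 10.21 to 10.86. With females alone, 5 adults and 5 embryos, 6152 genes differed between the stages and 1487 were beyond the run gap.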

How the data were processed

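Striatal RNA was labelled as biotin cRNA and hybridised to oligonucleotide arrays, per the labels' protocols. The authors deposited log2 expression values with 1 row for each Ensembl gene identifier. How arrays were background-corrected, normalized and summarised is not stated in the labels or the table. Groups, sex, age, run and litter came from the labels, and no table column was left unused (0). A filter dropped the 40% of genes with the lowest mean across the 71 arrays and left 9461.

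Models were fitted in R 4.3.3 with limma 3.58.1 and moderated with a trend on intensity, p-values were adjusted by Benjamini-Hochberg at 0.05, and the terms were adults, run 4 and run 5 embryos as groups and sex, which is estimated among embryos. Intervals are 95% intervals from moderated standard errors. Humanised arrays had a fit of their own, in which sex varies only within run 5. Alternatives changed the filter, scaling, trend, weights, sex term, litter and arrays. Fits were tested on simulated data, in which each gene had the same SD in adults and embryos and litters had no effect. That test therefore cannot show how unequal spread or shared litters affect the intervals. The rule for named genes took the largest changes each way, limited to 2 rises and 2 falls per comparison where no table names the genes. The sex gene was named after its values were seen. The rule's limits, members and gene lists were chosen with earlier results of these data known. Arrays are of separate animals, and p-values rest on the spread between these animals, pooled over adults and embryos. The 17 wild-type arrays came from 10 litters. The main fits hold no litter term, so littermates count as independent.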

Additional observations from a re-analysis of the deposited data

Results flagged for a closer look

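A single array stood far from the rest of its group in 3 of 54 groups of values examined for the 9 named genes, and chance alone flags about 1 in 20 such groups. ENSMUSG00000061808_at was at 10.53 in 1 run 4 wild-type embryo of litter 19, while the nearest of the other 4 was at 13.68. The same gene was at 12.95 in the humanised adult of litter 20, and the next of the 6 humanised adults was at 9.14. ENSMUSG00000041607_at was at 13.42 in 1 wild-type juvenile of line Ki, just below the next value of 13.66.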

How the results depend on the processing

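Leaving out each of the 17 wild-type arrays in turn gave 6477 to 7020 genes between the stages, 3987 to 5079 between the runs and 1457 to 1554 beyond the run gap; leaving out each humanised adult gave 6716 to 6820 stage genes. All 224 alternative values of the 8 named changes kept their direction and their call. Requiring more than 2-fold left 2615 stage genes, more than 4-fold 730, and more than the 99th percentile of the run gap 1311. A smaller change of at least 2 on the log2 scale left 472 genes beyond the run gap, 341 rising and 131 falling. The count between the runs rose to 7056 without the filter, 3197 higher and 3859 lower, where more genes were tested, and fell to 1044 in females alone, where fewer arrays were used. The count of genes whose stage change differs by genotype went from 0 to 1842 with array weights; the cause was not tested. With litter as a random block (within-litter correlation 0.17) 6673 genes differed by stage and 1480 were beyond the run gap. No paired analysis was possible because replicate numbers do not match animals of the 2 stages, and each litter holds 1 stage. The gene lists were not run, since no identifier was matched to a symbol (0). Quantile normalization, median centring, no trend and no sex term kept every other count within 1.5 times. Signal over background is not given in the table, so what depth limits could not be measured.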
